A study of Mus musculus with 66 samples.

Results

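The mid-colon of mice dissected on day 14 of a dextran sulfate sodium (DSS) experiment was compared with that of uninjured mice. DSS is a sulfated polysaccharide that injures the colonic epithelium when mice drink it. All mice were wild-type C57Bl/6, bought at 6 weeks of age. The day 14 mice had received 3% DSS for 6 days from day 0 and were then kept without it, and the day 0 mice had received none. The members are 7 of the 66 bulk RNA-seq samples of the series: the mid-colon mucosa of mice 1 to 4 (day 0) and of mice 14, 15 and 16 (day 14), chosen by the section and the dissection day in the labels. The whole series covers 19 mice at days 0, 3, 6, 9, 14 and 20 and up to 4 sections per mouse, and the muscle layer was stripped from every section before RNA isolation. Each sample came from a different mouse, so the spread within a group is between animals. No sex, cage, sequencing run or hour of dissection is given per mouse, so none of these could be set against the values.

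The colonic mucosa is a sheet of crypts in which stem cells at the base feed absorptive colonocytes, goblet cells that make mucus, hormone-releasing enteroendocrine cells and rare tuft cells, over a lamina propria rich in immune cells. DSS strips part of this sheet and lets bacteria reach the tissue, neutrophils and monocytes enter, and after the agent is withdrawn the crypts regrow and the mucosa slowly returns to its resting state. Day 14 lies after the withdrawal.

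Expression is given as TPM, a length-adjusted share of all transcripts in a library, so levels of different genes can be compared. Differences are day 14 minus day 0 on the log2(TPM + 1) scale, which understates the change of genes near or under 1 TPM. A gene was called, and is said to have risen or fallen, where the Benjamini-Hochberg adjusted p from limma was under 0.05 over all 12135 genes tested. The deposited values are not counts, so the depth of the libraries is unknown, and a gene without any estimated transcript in a library is written as listed at 0.

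The 7 libraries carried the genes of their labelled tissue. The 15 colonocyte markers summed to between 39350 and 47402 TPM on day 0 and between 32211 and 38994 TPM on day 14, with none at 0 in either group. The 12 squamous epithelium markers summed to 76.7 to 112 TPM on day 0 and 71.5 to 139 TPM on day 14. Of these 12, 10 had a mean under 1 TPM on day 0 and 9 on day 14, so few genes made up the sums. Between 11268 and 12307 genes reached 1 TPM per library, mitochondrially encoded genes took 16.4% to 25.4% of TPM, and the 10 most abundant genes took 24.0% to 32.8%. A pair of mice stood apart within their groups. Day 0 mouse 4 lay at -42.0 on the second principal component (27.3% of the variance), where the other day 0 mice lay between 13.8 and 18.6. Day 14 mouse 14 lay at 6.69 on the first component (46.2% of the variance), between the day 0 mice, at -30.0 to -19.4, and mice 15 and 16, at 42.9 and 54.3. Mouse 14 also had the highest mitochondrial share.

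Of the 12135 genes tested, 529 were called (4.36%). They comprised 309 genes that were higher on day 14 (2.55%) and 220 that were lower (1.81%), and 246 and 147 of them differed at least 2-fold. Before adjustment, 2516 of the genes tested had a p under 0.05. The median difference over all genes tested was -0.03. In every called gene the values of the groups did not overlap, as in 2067 of all tested genes (17.0%). The number of calls moved with single libraries: it was 128, 144, 121 and 1220 without day 0 mouse 1, 2, 3 and 4, and 1140, 108 and 63 without day 14 mouse 14, 15 and 16. Among the 92 called genes that are reported here by name or in the lists, 23 were called in all 7 of these leave-one-out fits. Each of these fits tested the same 12135 genes, since the filter was taken from all 7 mice. Genes that day 14 values brought through the filter thus stayed in them. For 416 of the 529 called genes mouse 14 was the day 14 mouse nearest the day 0 mean, against 73 for mouse 15 and 40 for mouse 16. The same count was not taken over all genes tested, so it is not shown to be particular to the called genes.

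Genes of antigen presentation by major histocompatibility complex (MHC) class II rose together. Class II molecules display peptides from engulfed material to CD4 T cells. They are made by B cells, dendritic cells and macrophages and, in inflamed gut, also by epithelial cells, and the co-activator Ciita switches their genes on through shared promoter boxes. All 9 of the 10 listed class II genes that met the expression filter were called higher, with a median difference of 2.10. In 3 of the 9, H2-DMb2, H2-Oa and H2-Ob, at least 2 day 0 mice were under 1 TPM, so those genes needed day 14 values to pass the filter, which favours genes that rose. Without mouse 15 or without mouse 16, 5 of the 9 were called, and without day 0 mouse 3, 7 were.

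The promoters of these genes are shown because they share the boxes through which class II genes are switched on together. The X box (searched as CTAGCAAC with up to 2 mismatches) binds the RFX complex and the Y box (ATTGG) binds NF-Y. The pair was searched on both strands of RefSeq windows (GRCm38.p6) from 250 bases before to 50 bases after each gene's start, with the Y box starting 30 to 45 bases after the X box. It was found in 892 of all 32851 windows (2.72%), and the Y letters alone were in 37.4% of them. Of the 7 listed class II genes with a window, 6 held the pair, all upstream of the RefSeq start on the gene's own strand. The GENCODE models of H2-DMb1 and H2-DMb2 start further upstream, so there the pair lies inside the gene, and in H2-DMb1 inside an exon. Capitals mark the boxes below, each sequence reads 5′ to 3′ on the gene's strand, and each ends with its Y box.

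H2-Aa, chr17:34287867-34287922, minus strand: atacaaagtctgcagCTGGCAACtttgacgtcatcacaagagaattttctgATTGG
H2-Eb1, chr17:34305758-34305812, plus strand: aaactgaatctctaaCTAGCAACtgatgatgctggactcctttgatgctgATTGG
H2-DMb2, chr17:34145108-34145163, plus strand: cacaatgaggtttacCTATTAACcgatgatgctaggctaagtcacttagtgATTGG
H2-Oa, chr17:34092285-34092340, plus strand: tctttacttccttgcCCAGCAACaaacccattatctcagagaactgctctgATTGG
H2-Ob, chr17:34238800-34238852, plus strand: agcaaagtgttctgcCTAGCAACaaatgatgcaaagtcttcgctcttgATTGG

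H2-Eb1 and H2-Ob matched the X box without a mismatch, H2-Aa and H2-Oa with 1 and H2-DMb2 with 2, and the starts of the boxes lay 33 to 36 bases apart. H2-DMb1 also held the pair, 36 bases apart and with 1 mismatch, and neither window of H2-DMa did. H2-Ab1, Cd74 and Ciita had no window. A match of letters is a description of the promoter and not a measured binding site.

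The genes of peptide-binding chains, H2-Aa, H2-Ab1 and H2-Eb1, and Cd74 were the most abundant members. H2-Aa (ENSMUSG00000036594, chromosome 17, 34282744 to 34287823 in GRCm38, protein coding), the alpha chain of I-A, was at 52.1, 51.1, 51.3 and 63.8 TPM in day 0 mice 1 to 4 and at 243, 325 and 861 TPM in day 14 mice 14, 15 and 16. All 3 day 14 mice were far above the day 0 range, mouse 16 most, and the difference was 2.89 on the log2 scale (SE 0.37, adjusted p = 0.0071). H2-Ab1, the beta chain of I-A, was at 48.1, 40.1, 51.0 and 53.9 TPM on day 0 and 109, 249 and 336 TPM on day 14, a difference of 2.10 (adjusted p = 0.015). H2-Eb1, a beta chain of I-E, was at 18.2, 21.1, 20.8 and 24.4 TPM on day 0 and 99.5, 127 and 200.2 TPM on day 14, a difference of 2.64 (adjusted p = 0.0019). In each of these chains the order of the day 14 mice was 14, 15, 16. These are RNA levels, and the data hold no measure of class II protein. Cd74, the invariant chain that guides class II molecules to the compartment where peptides are loaded, was at 33.8, 32.8, 40.8 and 38.3 TPM on day 0 and 104, 273 and 483 TPM on day 14, a difference of 2.69 (adjusted p = 0.015).

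The loading factors behaved in different ways between mice. H2-DMa, a chain of the molecule that exchanges peptides, rose by 1.92 (adjusted p = 0.014), and H2-DMb1 was at 3.91, 3.22, 3.28 and 2.69 TPM on day 0 and 10.3, 27.3 and 62.7 TPM on day 14, with the same order of mice as the binding chains. H2-DMb2 was at 0.932, 1.02, 0.948 and 1.07 TPM on day 0 and 8.96, 7.58 and 5.26 TPM on day 14, the opposite order, with a difference of 2.03 (adjusted p = 0.0021). H2-DMb1 and H2-DMb2 are close copies, and reads may have been split between them. H2-Oa and H2-Ob, the chains of the H2-O molecule that restrains H2-DM and is made mainly in B cells, rose by 1.90 and 1.36, and H2-Oa was at 3.67, 4.14 and 3.39 TPM in the 3 day 14 mice. Ciita was below the filter, at 0.134 ± 0.0599 TPM (SD, n = 4) on day 0 and 0.605, 2.04 and 2.20 TPM on day 14. H2-Aa, H2-Eb1, H2-DMb2 and H2-Oa were called in all leave-one-out fits.

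The B cell receptor subunits Cd79a and Cd79b rose to similar levels in all 3 day 14 mice. In all, 9 of the 11 tested B cell and lymphoid follicle genes were higher and none lower, with a median of 1.52, beside -0.03 over all genes. Of these 11, 8 were under 1 TPM in at least 2 day 0 mice and so needed day 14 values to pass the filter, and 7 of those 8 were called. Cd79a, a signalling subunit of the B cell receptor, was at 0.696, 0.714, 0.465 and 0.847 TPM on day 0 and 9.57, 8.09 and 9.45 TPM on day 14, a difference of 2.58 on the log2 scale (SE 0.17, adjusted p = 0.00093). Its partner Cd79b was at 1.03, 1.61, 1.25 and 1.64 TPM on day 0 and 11.8, 10.0 and 14.6 TPM on day 14. The day 14 mice were tightly grouped in both genes, and mouse 14 was not the lowest in either. Cxcl13, the chemokine that draws B cells into follicles, was at 2.31, 1.42, 1.64 and 3.59 TPM on day 0 and 12.7, 14.2 and 20.8 TPM on day 14, a difference of 2.40 (adjusted p = 0.0044), and its receptor Cxcr5 rose by 1.07 (adjusted p = 0.012).

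Ms4a1, which encodes the surface protein CD20, was at 3.69, 3.15 and 4.90 TPM on day 14 and under 1 TPM in every day 0 mouse, a difference of 1.82 (adjusted p = 0.0033). Fcrla, an intracellular Fc receptor-like protein of B cells, rose by 1.53, Cd22, an inhibitory receptor, by 1.25 and Fcer2a, the low-affinity IgE receptor, by 1.03. The complement receptor Cr2 was not called at 1.43 (adjusted p = 0.052), nor was the transcription factor Spib at -0.05 (adjusted p = 0.94). Cd79a, Cd79b, Ms4a1, Cxcl13 and Fcrla were called in all leave-one-out fits, and the number called in the list was 6 without mouse 16, its lowest. With all 19 mid-colon samples in the fit it was 5, and with the filter raised to 5 TPM 3 genes were both tested and called. In bulk tissue, more cells of a type and more RNA per cell cannot be told apart.

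Plasma cell genes differed between the mice instead. Of 9 tested, 1 rose, Pou2af1, a co-activator of immunoglobulin transcription (1.37 (adjusted p = 0.022)). It was under 1 TPM in every day 0 mouse and needed day 14 values to pass the filter, as did 2 other tested genes of the list. Igha, the constant region of IgA, was at 253, 52.4, 97.2 and 108 TPM on day 0 and 111, 528 and 1232 TPM on day 14. Mouse 14 lay within the day 0 range and mice 15 and 16 above it, and the difference of 1.93 was not called (adjusted p = 0.19). Without mouse 14, 5 of the 9 genes were called, and without each of the other mice except day 0 mouse 4, none was. Immunoglobulin genes together took 0.0401% to 0.911% of TPM in the 7 libraries. Of the 16 listed T cell and cytotoxic genes only 4 were tested, each under 1 TPM in at least 2 day 0 mice, and 3 rose: the receptor chain Trac (1.67 (adjusted p = 0.015)), the receptor subunit Cd3g (1.58 (adjusted p = 0.044)) and the adhesion receptor Cd2 (0.81 (adjusted p = 0.034)). None of them was called without mouse 15 or without mouse 16, 1 was without day 0 mouse 1, 2 or 3, and 4 were without mouse 14 or day 0 mouse 4.

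The summed level of the 13 B cell markers ranged from 6.52 to 10.8 TPM on day 0 and from 47.8 to 68.9 TPM on day 14, a range without overlap. The 14 macrophage and monocyte markers summed to 182 to 246 and to 388 to 428 TPM, with no gene at 0 in all mice of either group. Against this, the 10 class II genes summed to 153 to 187 TPM on day 0 and to 589, 1032 and 1974 TPM at the lowest, middle and highest day 14 mouse. The part of the B cell and macrophage markers in the class II values was not tested.

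**Figure D1:**
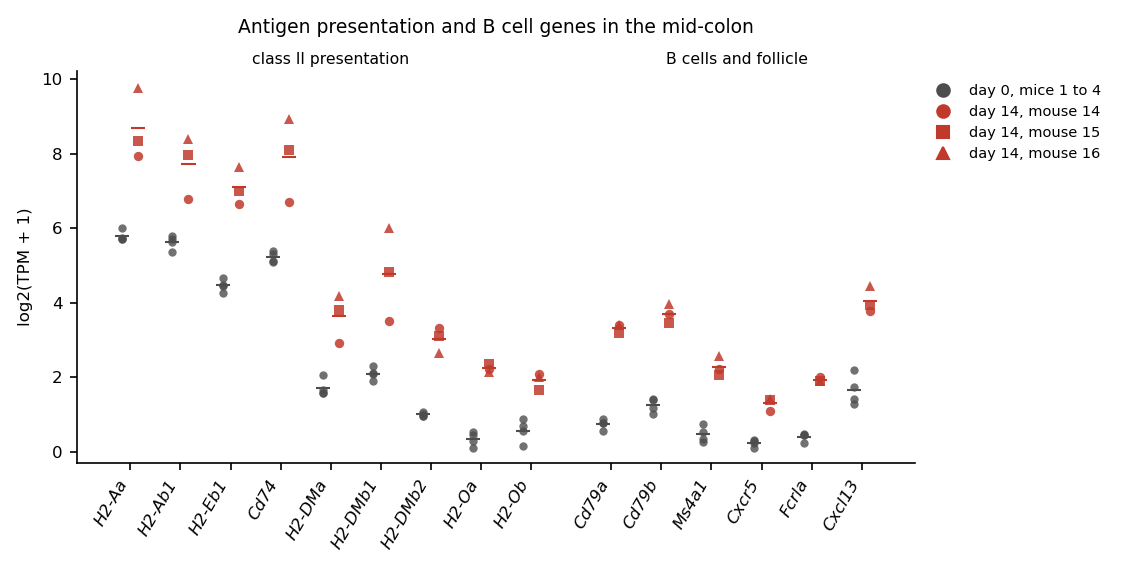
Class II and B cell genes in the 4 day 0 and 3 day 14 mid-colons. The vertical axis is log2(TPM + 1), each point is 1 mouse and each bar is the group mean. Only called genes are drawn, so Cr2 and Spib are left out. In every called gene the groups did not overlap, as in 17.0% of all genes tested. The day 14 mice spread widely in H2-Aa (243 to 861 TPM) and lie close together in Cd79a (8.09 to 9.57 TPM).

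Neutrophil and interleukin-1 genes were still far above the uninjured level on day 14. All 7 tested of 12 neutrophil genes rose, with a median of 2.94, and 6 of the 7 needed day 14 values to pass the filter. S100a8 (ENSMUSG00000056054, chromosome 3, 90668978 to 90670035 in GRCm38, protein coding) and S100a9 encode calprotectin, an abundant protein of the neutrophil cytoplasm. S100a8 was at 0, 0, 0.464 and 0.780 TPM on day 0 and 26.7, 131 and 176 TPM on day 14, a difference of 6.09 on the log2 scale (SE 0.57, adjusted p = 0.002). S100a9 was at 0, 0.323, 1.43 and 1.42 TPM on day 0 and 32.3, 141 and 216 TPM on day 14. Mouse 14 was the lowest of the 3 in both genes and above every day 0 mouse, as it was in each called gene that rose. The growth factor receptor Csf3r rose by 2.94 (adjusted p = 0.002), the chemokine receptor Cxcr2 by 1.75 (adjusted p = 0.0095), Retnlg by 2.44 (adjusted p = 0.03) and Clec4e, a receptor for fungal and bacterial glycolipids, by 2.60 (adjusted p = 0.017).

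Cd177, a neutrophil surface protein and the 1 member above 1 TPM in every day 0 mouse, was at 9.38, 17.5, 12.5 and 6.06 TPM on day 0 and 47.7, 209.8 and 172 TPM on day 14 (3.38 (adjusted p = 0.012)). Without mouse 16, 3 of the 7 neutrophil genes were called, and with no filter on low values 5 of 12. The summed level of the 12 genes was 9.20 to 18.5 TPM on day 0 and 117, 528 and 613 TPM in the day 14 mice from the lowest to the highest. Cd177 alone made up most of the day 0 sum. Whether its RNA came from neutrophils was not tested. S100a8, S100a9 and Csf3r were called in all leave-one-out fits.

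Of 10 tested cytokines and chemokines, 3 rose and none fell. Il1b and Cxcl2, both called, were among 4 of the 10 that needed day 14 values to pass the filter. Il1b, the interleukin-1 beta gene, was at 0.218, 0.391, 0.522 and 0.571 TPM on day 0 and 21.2, 81.8 and 97.1 TPM on day 14, a difference of 5.32 on the log2 scale (SE 0.45, adjusted p = 0.0017) that was called in every leave-one-out fit. Cxcl2, which attracts neutrophils, was listed at 0 in day 0 mice 1 and 2, was at 0.0594 and 0.150 TPM in mice 3 and 4, and reached 3.35, 19.7 and 30.9 TPM on day 14. Ccl8, which attracts monocytes, was at 5.16, 12.3, 8.68 and 9.07 TPM and 24.5, 31.5 and 55.6 TPM, a difference of 1.93 (adjusted p = 0.018). In all 3 genes the order of the day 14 mice was 14, 15, 16. Without mouse 16, 1 of the 3 was called. Il1r2, the decoy receptor that binds interleukin-1, was among the 15 largest rises, at 0.0762, 0, 0.551 and 0.20 TPM on day 0 and 5.65, 9.49 and 14.8 TPM on day 14 (3.12 (adjusted p = 0.002)). Srgn, the proteoglycan of leukocyte granules, was another, at 4.95, 3.99, 3.63 and 6.08 TPM and 21.6, 70.5 and 73.5 TPM (3.14 (adjusted p = 0.0071)). Both kept their call in every leave-one-out fit. Il1r2 was under 1 TPM in every day 0 mouse and needed day 14 values to pass the filter.

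Of 12 tested macrophage and monocyte genes, 5 were higher and none lower, with a median of 0.76. Ccr2, one of the 5, was under 1 TPM in 3 day 0 mice and needed day 14 values to pass the filter, as did 1 gene that was not called. The complement subunits C1qa, C1qb and C1qc, secreted by tissue macrophages, rose by 1.02, 0.86 and 0.79. C1qb was at 18.1, 20.8, 24.7 and 28.8 TPM on day 0 and 40.2, 42.4 and 43.6 TPM on day 14, so the 3 day 14 mice were nearly alike. The monocyte chemokine receptor Ccr2 rose by 1.11 (adjusted p = 0.035) and the lipopolysaccharide co-receptor Cd14 by 1.69 (adjusted p = 0.039). The macrophage receptors Adgre1, at 0.33 (adjusted p = 0.32), and Mrc1, at -0.48 (adjusted p = 0.27), were not called. The number called was 0 without any 1 of day 0 mice 1, 2 or 3 or day 14 mice 15 or 16, and 6 without day 0 mouse 4 or day 14 mouse 14, although 10 of the 12 genes had an unadjusted p under 0.05 in the fit of all 7 mice.

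Interferon-response genes divided the day 14 mice. The mean difference of the 20 tested genes from the day 0 mean was 0.34 in mouse 14, 2.68 in mouse 15 and 2.98 in mouse 16, where the day 0 mice ranged from -0.22 to 0.14. Over the 3 mice, 2 genes were called higher and none lower, 18 had an unadjusted p under 0.05, and the median was 1.99. Without mouse 14, all 20 were called, and without any other single day 14 mouse or day 0 mouse 1, 2 or 3 none was. With trimmed-mean scaling 9 genes were called, and 7 with TPM recomputed without mitochondrial and immunoglobulin genes. The called genes were the chemokine Cxcl10, at 1.45, 0.433, 0.734 and 1.57 TPM on day 0 and 2.98, 19.8 and 29.1 TPM on day 14 (2.77 (adjusted p = 0.038)), and the immunoproteasome subunit Psmb8, at 31.4, 30.3, 35.6 and 26.5 TPM and 48.6, 194 and 197 TPM (1.97 (adjusted p = 0.039)). Cxcl10 needed day 14 values to pass the filter.

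The guanylate-binding protein Gbp2 was at 15.4, 17.5, 22.1 and 26.4 TPM on day 0 and 31.9, 336 and 452 TPM on day 14 (3.03 (adjusted p = 0.06)), so that mouse 14 lay just above the day 0 range and mice 15 and 16 far above it. Several of the largest rises had the same shape, including the ubiquitin-like modifier Ubd, at 3.73, 3.05, 7.81 and 5.43 TPM on day 0 and 13.2, 108 and 198 TPM on day 14, the GTPase Tgtp1, at 0.312, 0.244, 1.29 and 1.64 TPM and 3.95, 65.7 and 256 TPM, and the class Ib gene H2-Q7, at 0.706, 1.70, 1.62 and 1.06 TPM and 6.36, 35.7 and 45.1 TPM. Tgtp1 and H2-Q7 have near-identical copies, so their levels are uncertain. In each of these 3 genes mouse 14 lay closest to day 0. The rule that named them required groups that do not overlap, and Tgtp1 needed day 14 values to pass the filter.

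The tryptophan-degrading enzyme Ido1 was at 1.32, 1.09, 1.85 and 2.39 TPM on day 0 and 11.8, 198 and 202 TPM on day 14, a difference of 4.94 on the log2 scale (SE 0.85, adjusted p = 0.018). Acod1, which makes itaconate in activated macrophages, was listed at 0 in day 0 mice 1 to 3 and was at 1.94, 18.6 and 21.4 TPM on day 14 (3.44 (adjusted p = 0.02)). Wfdc18 was at 16.1, 25.1, 12.5 and 14.9 TPM and 49.9, 386 and 235 TPM, and Isx, an intestinal homeobox factor, at 0.158, 0.379, 0.617 and 0.404 TPM and 2.61, 21.4 and 19.7 TPM. In Ido1, Acod1, Wfdc18 and Isx mouse 14 was the lowest of the day 14 mice and stood above every day 0 mouse. All 4 lost their call in some of the fits that left out 1 mouse. Acod1 and Isx were under 1 TPM in every day 0 mouse and needed day 14 values to pass the filter.

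**Figure D2:**
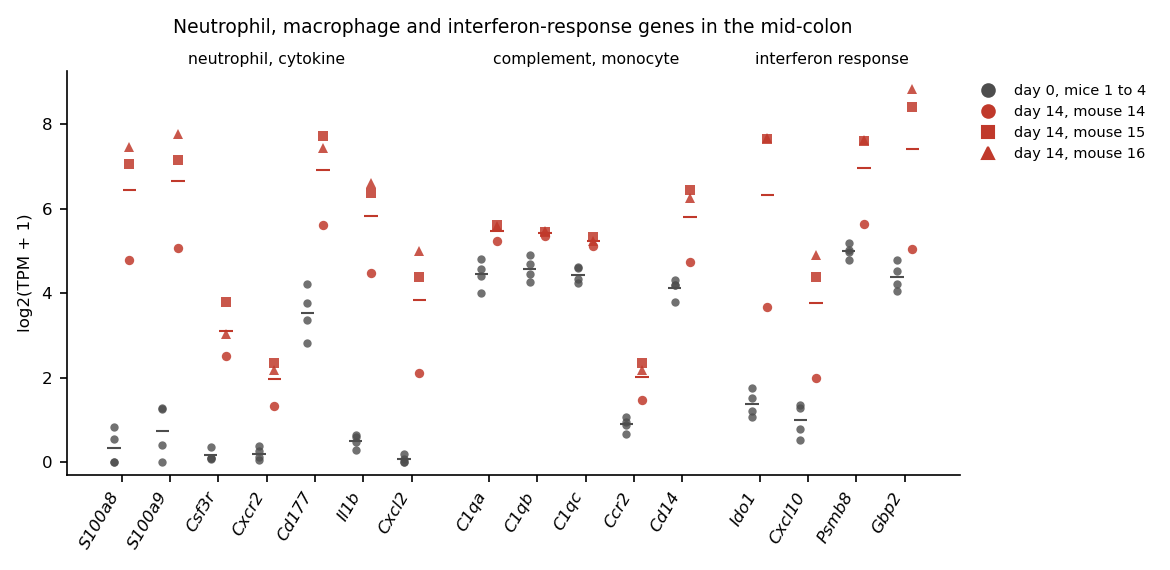
Neutrophil, cytokine, macrophage and interferon-response genes in the 4 day 0 and 3 day 14 mid-colons. The vertical axis is log2(TPM + 1), each point is 1 mouse and each bar is the group mean. Mouse 14 (circle) lies below mice 15 and 16 in S100a8 (26.7 against 131 and 176 TPM) and near the day 0 points in Gbp2 (31.9 against 336 and 452 TPM), while the 3 day 14 mice nearly coincide in C1qb.

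Among 15 tested genes of epithelial defence, 2 rose and 2 fell, with a median of 1.28. Reg4, a lectin of deep crypt secretory cells (ENSMUSG00000027876, chromosome 3, 98222156 to 98236748 in GRCm38, protein coding), had little spread in either group. It was at 205, 197, 202 and 209.6 TPM on day 0 and 579, 684 and 609 TPM on day 14, a difference of 1.61 on the log2 scale (SE 0.12, adjusted p = 0.00093), and was called in all leave-one-out fits. The other gene that rose was Ido1. Retnla, which encodes resistin-like alpha, fell from 15.8, 13.6, 18.8 and 19.4 TPM to 3.37, 0.367 and 0.542 TPM (-3.08 on the log2 scale (SE 0.38, adjusted p = 0.0065)), and it too was called in all leave-one-out fits. Mptx1, a mucosal pentraxin, fell from 1744, 1467, 1763 and 2342 TPM to 857, 415 and 519.6 TPM (-1.66 (adjusted p = 0.013)), a call that was lost without mouse 16.

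Several defence genes that were not called spread widely between the day 14 mice. Nos2, the inducible nitric oxide synthase, was at 0.0444, 0.372, 0.150 and 0.203 TPM on day 0 and 1.16, 83.9 and 44.1 TPM on day 14 (4.09 (adjusted p = 0.059)). Duox2, an epithelial oxidase, was at 5.64, 15.7, 11.9 and 7.65 TPM and 10.1, 100.3 and 43.4 TPM (1.80 (adjusted p = 0.15)), and the siderophore-binding protein Lcn2 at 2.44, 2.69, 3.36 and 5.29 TPM and 3.38, 16.6 and 14.0 TPM (1.28 (adjusted p = 0.15)). Mouse 14 overlapped the day 0 mice in Duox2 and Lcn2. Retnlb, a goblet cell protein toxic to bacteria, was at 0, 2.09, 0.227 and 0.0952 TPM on day 0 and ranged from 1.30 to 372 TPM between the day 14 mice (4.65 (adjusted p = 0.096)). None of these 4 genes was called. Without mouse 14, 9 of the 15 defence genes were called higher, and 1 was without any 1 of mice 1, 2, 3, 15 and 16.

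Carbonic anhydrase genes and the exchanger Slc26a3 were the colonocyte genes called lower on day 14. Of 15 tested colonocyte genes, 3 fell and none rose, with a median of -0.54. Car1 (ENSMUSG00000027556, chromosome 3, 14766216 to 14808368 in GRCm38, protein coding), a carbonic anhydrase of the surface epithelium, was at 3094, 4162, 4381 and 4726 TPM on day 0 and 1387, 448 and 306 TPM on day 14, a difference of -2.81 on the log2 scale (SE 0.43, adjusted p = 0.014). Each day 14 mouse was below every day 0 mouse, and mice 15 and 16 were the lowest. Car4, its membrane-bound relative, was at 3802, 4074, 4982 and 5674 TPM on day 0 and 2498, 1589.9 and 2197 TPM on day 14 (-1.15 (adjusted p = 0.018)), and the chloride-bicarbonate exchanger Slc26a3 at 1129.9, 1463, 1710.0 and 1651 TPM and 938, 529 and 640.1 TPM (-1.11 (adjusted p = 0.029)). The water channel Aqp8 was at 1469, 1685, 1606 and 1668 TPM on day 0 and 1122, 355 and 826 TPM on day 14, without overlap, and was not called (-1.22 (adjusted p = 0.074)).

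Lypd8, which keeps flagellated bacteria off the epithelium and was the most abundant colonocyte gene of the list, was at 27788 ± 1797 TPM (SD, n = 4) on day 0 and 28658 ± 3559 TPM (SD, n = 3) on day 14, with a difference of 0.04 (adjusted p = 0.9). None of the 15 genes was called without mouse 15 or without mouse 16, 1 was without day 0 mouse 3, and 5 were without mouse 14. Before adjustment, 8 of the 15 had a p under 0.05. With no filter on low values, which raised the number of genes tested to 21035, none of the 15 was called.

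The 14 tested genes of salt and water transport moved in both directions, with 2 called higher and 3 lower. Scnn1a, the alpha subunit of the epithelial sodium channel, was at 137, 133, 143 and 75.3 TPM on day 0 and 56.2, 51.2 and 25.5 TPM on day 14 (-1.48 (adjusted p = 0.035)), while Scnn1b, the beta subunit, was at 0.09 (adjusted p = 0.8) and Scnn1g, the gamma subunit, at -0.47 (adjusted p = 0.34). Whether the subunits differed from each other was not tested. The proton pump Atp12a fell by 0.96 (adjusted p = 0.028) and the sodium-proton exchanger Slc9a2 by 0.91 (adjusted p = 0.034). The genes that rose were the chloride-loading cotransporter Slc12a2 (1.20 (adjusted p = 0.04)) and the water channel Aqp4, at 17.9, 18.4, 16.2 and 16.1 TPM on day 0 and 38.0, 78.7 and 75.2 TPM on day 14 (1.77 (adjusted p = 0.0095)). Outside the list, Fxyd4, a regulator of the sodium pump, had the largest fall of all genes that met the naming rule, from 176, 146, 149 and 204 TPM to 43.7, 6.94 and 17.4 TPM (-3.17 on the log2 scale (SE 0.47, adjusted p = 0.012)). The bicarbonate cotransporter Slc4a4 fell from 31.1, 31.0, 44.3 and 20.8 TPM to 9.94, 8.96 and 8.30 TPM (-1.66 (adjusted p = 0.0099)). Among all alternatives run, Aqp4, Fxyd4 and Slc4a4 lost their call only without mouse 16. Of the 3 transport genes that fell, 1 was called without mouse 1 and none without mouse 2, 3, 15 or 16.

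Calcium uptake genes fell by a similar amount in all 3 day 14 mice, with mean differences of -1.23, -1.61 and -1.41 from the day 0 mean in mice 14, 15 and 16. Calcium enters colonocytes through the channel Trpv6, is carried by the binding protein S100g and leaves through the pump Atp2b1, and all 3 are induced by the vitamin D receptor Vdr. Of 5 tested genes, 4 fell, with a median of -1.29, and 3 further genes of the list were below the filter. S100g (ENSMUSG00000040808, chromosome X, 162961992 to 162964599 in GRCm38, protein coding) was at 234, 324, 721 and 303 TPM on day 0 and 48.4, 20.0 and 79.3 TPM on day 14, a difference of -3.04 on the log2 scale (SE 0.48, adjusted p = 0.015) that was called in every leave-one-out fit. Trpv6 was at 28.4, 32.7, 36.0 and 19.0 TPM on day 0 and 10.6, 10.5 and 14.9 TPM on day 14, and Vdr at 339.5, 343, 454 and 207 TPM and 147, 140.2 and 86.6 TPM. Day 0 mouse 4 had the lowest Trpv6, Vdr and Atp2b1 of its group. It exceeded all 3 day 14 mice, as every day 0 mouse did in each called gene that fell. The differences of Trpv6, Vdr and Atp2b1 were -1.19 (adjusted p = 0.03), -1.40 (adjusted p = 0.029) and -1.29 (adjusted p = 0.036). Only S100g was called without any 1 of mice 1, 2, 3, 15 or 16, and with no filter on low values none of the list was called. The remaining gene, the exchanger Slc8a1, was at -0.15 (adjusted p = 0.75).

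Further genes among the 15 largest falls had varied roles. The serine protease Klk15 was at 18.3, 20.7, 11.6 and 12.6 TPM on day 0 and 4.88, 0.471 and 0.261 TPM on day 14 (-2.89 (adjusted p = 0.018)). Sun2, which ties the nuclear envelope to the cytoskeleton, fell from 63.6, 58.2, 81.1 and 46.5 TPM to 31.3, 9.58 and 10.3 TPM (-1.99 (adjusted p = 0.024)). The carboxylesterase Ces1f fell from 10.2, 8.47, 7.42 and 7.23 TPM to 2.61, 1.41 and 1.37 TPM (-1.76 (adjusted p = 0.0067)) and was called in all leave-one-out fits. The other falls among the 15 were those of Tppp, Phospho1, Naaladl1, Ahnak2, Gsdmcl2 and Fam189a2, with differences from -1.97 to -1.66 and adjusted p from 0.023 to 0.048. Ces1f and Gsdmcl2 belong to families of close copies among which reads may have been split.

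Secretory lineage genes were higher in part. Of 15 tested goblet cell genes, 3 rose and none fell, with a median of 0.34. Muc2, the gel-forming mucin, was at 752, 872, 806 and 473 TPM on day 0 and 1170.0, 2899 and 2202 TPM on day 14 (1.47 (adjusted p = 0.036)), Spink4, a secreted protease inhibitor, at 897, 1147, 916 and 1377 TPM and 1842, 3639 and 7119.6 TPM (1.76 (adjusted p = 0.038)), and the lineage factor Spdef at 13.3, 12.9, 16.5 and 13.3 TPM and 20.0, 36.8 and 35.0 TPM (1.04 (adjusted p = 0.039)). Mouse 14 was the lowest day 14 mouse in each. Other abundant goblet cell products were not called: Tff3 was at 6297, 5515 and 7065 TPM on day 14 (0.33 (adjusted p = 0.26)), Zg16 differed by 0.33 (adjusted p = 0.33), and Clca1 by -0.02 (adjusted p = 0.97), a value that was 0.02 with trimmed-mean scaling. Without mouse 14, 6 of the 15 goblet cell genes were called, and without mouse 1, 2, 3, 15 or 16 none was.

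The hormone genes Pyy, Gcg and Insl5 were higher in all 3 day 14 mice than in any day 0 mouse. Of 11 tested enteroendocrine genes 5 rose and none fell, with a median of 0.86, and none of the 11 needed day 14 values to pass the filter. Pyy, the peptide YY gene, was at 281, 217, 187 and 195 TPM on day 0 and 601, 926 and 665 TPM on day 14, a difference of 1.72 on the log2 scale (SE 0.20, adjusted p = 0.0052). Gcg, which encodes the glucagon-like peptides, was at 11.0, 14.9, 12.7 and 10.2 TPM and 31.3, 45.4 and 46.5 TPM (1.67 (adjusted p = 0.0063)), and Insl5, an insulin-like hormone of the distal colon, at 122, 91.2, 98.4 and 146 TPM and 302, 275 and 361 TPM (1.46 (adjusted p = 0.0073)). These 3 hormones of the colonic L cell were each called in all leave-one-out fits, and the groups did not overlap, as in every called gene. The granule proteins Chgb and Scg2 rose by 0.85 and 0.86 (adjusted p = 0.025 and 0.025), and Chga was at 0.44 (adjusted p = 0.21). The number called was 3 without any 1 of mice 1, 2, 3, 15 or 16, and 7 without mouse 14. The 14 listed genes summed to 369 to 489 TPM on day 0 and 1042 to 1441 TPM on day 14.

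Of 6 tested tuft cell genes 1 fell, the signalling regulator Rgs13 (-1.02 (adjusted p = 0.036)), and it was not called without day 0 mouse 1, 2 or 3 or day 14 mouse 15 or 16.

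**Figure D3:**
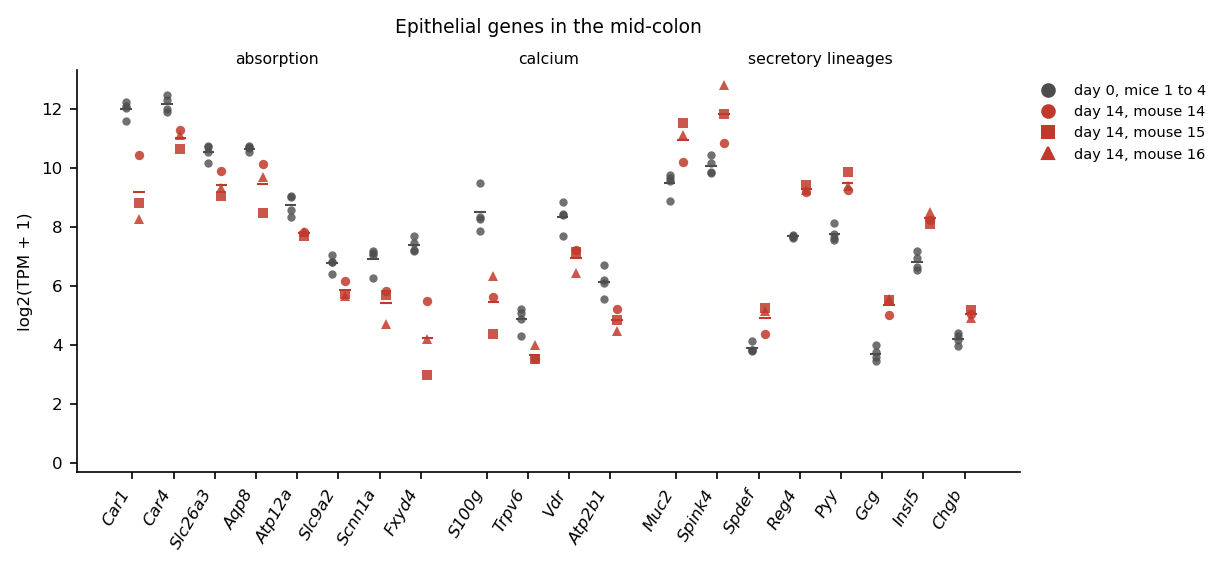
Epithelial genes in the 4 day 0 and 3 day 14 mid-colons. The vertical axis is log2(TPM + 1), each point is 1 mouse and each bar is the group mean. The genes drawn, apart from Aqp8, were called, and groups did not overlap in any called gene, as in 17.0% of all genes tested. Day 14 points lie below day 0 points for the absorption and calcium genes drawn and above them for the secretory genes drawn. Genes not drawn include Aqp4 and Slc12a2, which rose, and Lypd8, Scnn1b, Tff3, Zg16, Clca1 and Chga, which were not called. Reg4 has narrow groups, 197 to 209.6 TPM and 579 to 684 TPM.

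The cell cycle and crypt stem cell lists held no calls. In lists of their size, the 4.36% called over all genes gives few or no calls. None of 15 cell cycle genes was called by limma, beside 4.36% of all genes tested, 1 had an unadjusted p under 0.05, and the median was 0.34. Mki67, the proliferation antigen, was at 8.95, 10.1, 11.9 and 4.68 TPM on day 0 and 7.08, 11.9 and 11.9 TPM on day 14 (0.22 (adjusted p = 0.74)). Crypt stem cell and Wnt target genes had 0 calls among 8 tested, with 2 at an unadjusted p under 0.05 and a median of 0.18. Of 13 genes associated with injured epithelium, 2 rose, beside 2.55% of all genes tested. They were the hyaluronan receptor Cd44 (1.23 (adjusted p = 0.041)) and the urokinase receptor Plaur (1.81 (adjusted p = 0.023)). Ly6a, the surface protein by which regenerating colonic epithelium is often sorted, was at 575, 821, 858 and 936 TPM on day 0 and 497, 2592 and 3512 TPM on day 14, with mouse 14 below the day 0 range and mice 15 and 16 above it (1.07 (adjusted p = 0.33)). Of the 13, 5 were called without mouse 14 and none without mouse 1, 2, 3, 15 or 16.

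The stromal lists held few calls, as did all genes tested (4.36% called). In lists of this size that share gives few or no calls. Of 16 fibroblast and matrix genes 1 rose, the metalloproteinase Mmp3, at 0.192, 0.219, 0.569 and 0.453 TPM on day 0 and 2.50, 4.05 and 1.49 TPM on day 14 (1.39 (adjusted p = 0.021)), and it needed day 14 values to pass the filter. That list's median was -0.33, and the number called was 2 without mouse 14 and 0 without mouse 1, 2, 3 or 15. None of 10 smooth muscle genes was called, 6 had an unadjusted p under 0.05, and the median was -0.53. They summed to 930 to 1332 TPM on day 0 and to 517 to 759 TPM on day 14, ranges that do not overlap, and the part of residual muscle in the other values was not tested. Endothelium had 0 of 6 called (1 at an unadjusted p under 0.05, median 0.38), enteric neurons and glia 0 of 4 (1, median -0.24), adipocytes 0 of 2 (1, median 0.32) and squamous epithelium 0 of 3 (0, median -0.14).

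Metabolic lists held few calls, as did all genes tested (529 of 12135, 4.36%). In lists of this size that share gives few or no calls. Ketogenesis and fatty acid oxidation had 0 of 14 called (3 at an unadjusted p under 0.05, median -0.30), cholesterol synthesis 0 of 19 (4, median 0.40) and endoplasmic reticulum chaperones 0 of 15 (1, median 0.31). Of 17 genes of xenobiotic metabolism 1 fell, the cytochrome P450 Cyp2s1, at 80.3, 79.6, 82.2 and 46.2 TPM on day 0 and 35.9, 24.6 and 22.4 TPM on day 14 (-1.34 (adjusted p = 0.023)). The xenobiotic list had a median of -0.51 with 10 genes at an unadjusted p under 0.05, and 7 were called without mouse 14, 2 without day 0 mouse 4 and none without any other mouse.

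Positional and clock genes were also lower in part. Of 8 tested genes that mark position along the colon, 2 fell: Hoxb13, at 204, 184, 195 and 125 TPM on day 0 and 81.6, 94.5 and 57.8 TPM on day 14 (-1.18 (adjusted p = 0.025)), and Hoxd12 (-1.14 (adjusted p = 0.036)). Hoxd13, a neighbour of Hoxd12 in its cluster, was at -0.08 (adjusted p = 0.85). The number called was 4 without day 0 mouse 4, 1 without mouse 15 and 0 without mouse 1, 2, 3 or 16. The labels do not say where along the mid-colon each section was cut, and the part of that place in the Hox values was not tested. Of 15 clock genes 3 fell: the activator Arntl, at 12.1, 12.9, 17.7 and 13.8 TPM on day 0 and 5.90, 4.80 and 5.52 TPM on day 14 (-1.23 (adjusted p = 0.012)), and the repressors Nr1d1 (-1.20 (adjusted p = 0.046)) and Cry2 (-1.08 (adjusted p = 0.045)). Clock genes follow the hour of day, the hour of dissection is not given, and its part was not tested. Their number called was 5 without day 0 mouse 4 or mouse 14, 1 without mouse 1, 2 or 3 and 0 without mouse 15 or 16.

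Across the 29 lists with at least 3 genes tested, mouse 14 was the day 14 mouse nearest the day 0 mean in 19, mouse 15 in 5 and mouse 16 in 5. Macrophage genes lay at 0.51, 0.75 and 0.58 in mice 14, 15 and 16, B cell genes at 1.57, 1.33 and 1.74, and calcium genes at -1.23, -1.61 and -1.41. Mouse 14 was far from the others on interferon genes (0.34 against 2.68 and 2.98) and on defence genes (0.19 against 1.92 and 1.66). It was on the other side of the day 0 mean in cell cycle genes (-0.29 against 0.89 and 0.65). These are values of 3 mice, with no test of one mouse against another. They cover only genes that passed the filter, which in the B cell list 8 of 11 genes did through day 14 values. That favours higher means. With no filter on low values, no gene of the colonocyte, calcium, goblet cell, interferon, plasma cell, injury-associated, fibroblast, xenobiotic or positional lists was called.

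**Figure D4:**
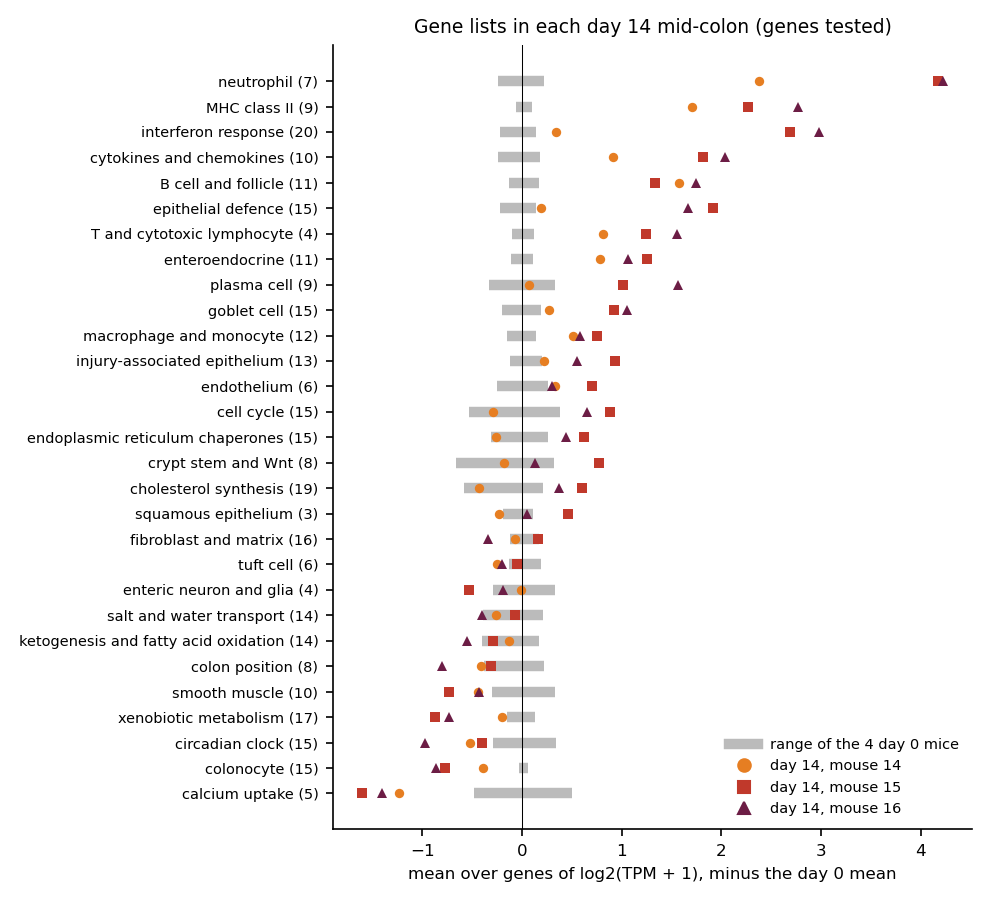
Mean difference of each gene list from the day 0 mean, per day 14 mouse, over the list genes that passed the filter (their number in brackets). The horizontal axis is log2(TPM + 1) minus the day 0 mean, and grey bars span the 4 day 0 mice. On neutrophil genes the mice lie at 2.38, 4.17 and 4.22, and on interferon genes mouse 14 lies at 0.34, near the grey bar. Of the 7 neutrophil genes 6 needed day 14 values to pass the filter, as did 8 of 11 B cell and 4 of 4 T cell genes. That favours higher day 14 means in these lists.

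Day 14 was set beside the earlier and later days. Against day 0, 5353 of 12323 genes were called on day 9 (43.4%), 529 on day 14 and 189 of 12116 on day 20 (1.56%). Before adjustment, limma gave a p under 0.05 for 6281, 2516 and 2505 genes on days 9, 14 and 20. When mice were left out singly, the day 14 number of calls ran from 63 to 1220, a range that holds 189. The numbers called on days 14 and 20 thus do not show a further return towards day 0. The comparisons against day 0 share the day 0 mice, and those below share the day 14 mice, so they are given side by side. Directly between day 14 and day 9, 2425 of 12317 genes were called (19.7%), 785 higher on day 14 (6.37%) and 1640 lower (13.3%), with a median difference of -0.12. With trimmed-mean scaling the median was 0.02 and the split 1413 higher and 1710 lower. Without day 9 mouse 12 the number called was 1107, without mouse 13 it was 1219 and without day 14 mouse 16 it was 1327. Directly between day 20 and day 14, limma called 0 of 12248 genes (0.0%), 409 had an unadjusted p under 0.05, and 2 were called without mouse 14.

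Cell cycle genes fell from day 9 to day 14. All 15 cell cycle genes were lower on day 14 than on day 9, also without any 1 of the 6 mice, with a median of -2.44, and Mki67 had a mean of 56.3 TPM on day 9. S100a8 was at 226 to 1012 TPM on day 9 and fell by 2.59 to day 14 (adjusted p = 0.044). Of 10 neutrophil genes tested between these days, 3 were lower (S100a8, Retnlg and the collagenase Mmp8) and 1 was higher, Cd177, which had a mean of 29.6 TPM on day 9 and differed by 2.03 (adjusted p = 0.029). Without day 9 mouse 12 none of the 10 was called lower, and without mouse 11, 14, 15 or 16 1 was. Cd177 was not called without any 1 of mice 11, 12, 13, 15 or 16, and with no filter on low values no neutrophil gene was called between these days. Il1b was at 26.7 to 188 TPM on day 9, near its day 14 values (-0.20 (adjusted p = 0.88)). On day 20 S100a8 was at 1.33 to 68.1 TPM and Il1b at 1.0 to 34.3 TPM.

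Some class II and B cell genes were higher on day 14 than on day 9. H2-Aa was at 125 to 174 TPM on day 9 and differed by 1.47 (adjusted p = 0.044), and H2-Eb1 by 1.46 (adjusted p = 0.011). Of 10 class II genes 4 were higher on day 14, and of 11 B cell genes 7. The class II number was 9 without mouse 14, 4 without mouse 11 and 3 without mouse 12, 13, 15 or 16, and the B cell number was 5 to 9 without 1 mouse. With all 19 mid-colon samples in the fit, 2 class II genes and 1 B cell gene were called. Cd79a was at 2.05 to 3.79 TPM on day 9 (1.49 (adjusted p = 0.0057)). Cxcl13 was not called between the days (-0.72 (adjusted p = 0.5)), and it was at 91.3, 17.7 and 10.6 TPM in day 9 mice 11, 12 and 13. On day 20 Cd79a ranged from 1.15 to 42.5 TPM and H2-Aa from 129 to 508 TPM, so that the 3 day 20 mice spread more widely in Cd79a than those of day 14. No B cell gene was called on day 20 against day 0 among 5 tested, and 2 of 7 class II genes were.

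Epithelial genes moved in both directions between the days. Of 5 calcium genes 3 were higher on day 14 than on day 9, also without any 1 of the mice: S100g, at 1.13 to 4.99 TPM on day 9 (3.86 (adjusted p = 0.0044)), Trpv6 (2.39 (adjusted p = 0.0023)) and Vdr (1.64 (adjusted p = 0.011)). Slc26a3 and Aqp8 were higher on day 14 by 1.89 and 2.40, and Car1, at 839.5 to 1736 TPM on day 9, was not called (-1.07 (adjusted p = 0.19)). Whether these genes differed from each other was not tested. The colonocyte list had 5 genes called higher and 1 lower. Its number higher was 2 without mouse 12, 3 without mouse 13, 1 without mouse 16 and 0 with no filter on low values. Of 15 goblet cell genes 9 were higher on day 14 and 1 lower, the antimicrobial ribonuclease Ang4, and the number that were higher was 1 without mouse 12, 3 without mouse 13 and 4 without mouse 15 or 16, and none with no filter on low values. Reg4 was at 167 to 349 TPM on day 9, was higher on day 14 by 1.20 (adjusted p = 0.023) and stayed at 523 to 719 TPM on day 20. Gcg was lower on day 14 than on day 9 by 1.53 (adjusted p = 0.0036).

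**Figure D5:**
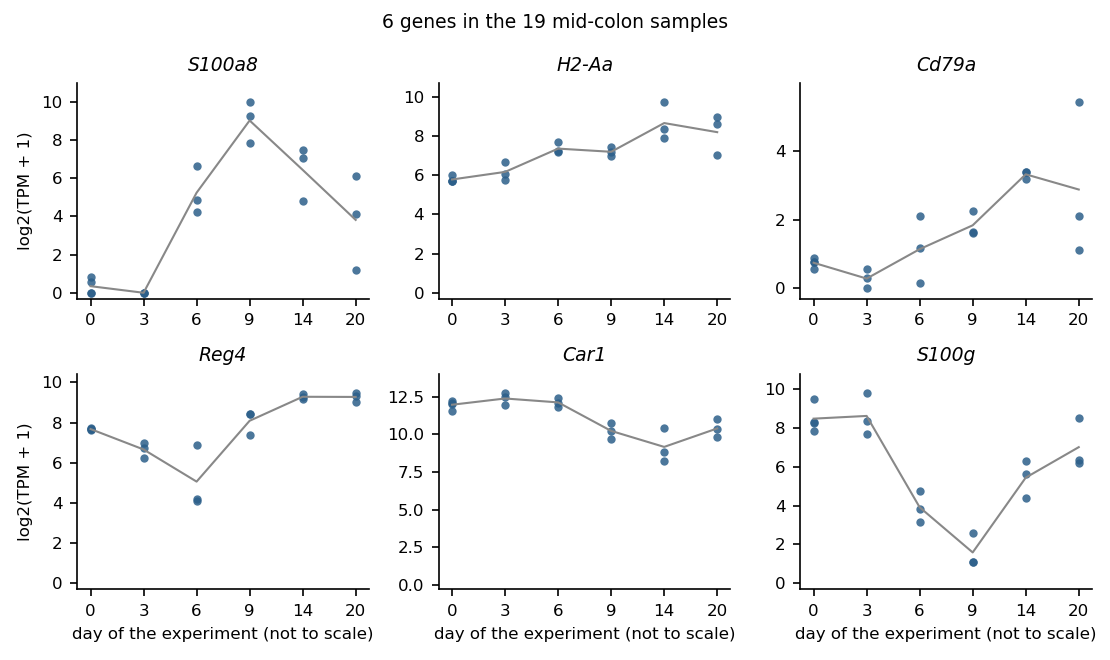
Levels of 6 genes in the 19 mid-colon samples by day of the experiment. The vertical axis is log2(TPM + 1), each point is 1 mouse, the line joins the means, and the days are not drawn to scale. S100a8 is highest on day 9 (226 to 1012 TPM), Cd79a on day 14 lies at 8.09 to 9.57 TPM, and S100g is lowest on day 9 (1.13 to 4.99 TPM).

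The rectum of the same 7 mice gave a second section in which to see the day 14 difference. There 2017 of 12749 genes were called (15.8%). All 7 of the neutrophil genes called in mid-colon were called in rectum too, where S100a8 was at 0 to 1.27 TPM on day 0 and 72.9 to 2032 TPM on day 14 (8.36 (adjusted p = 0.0054)). All 21 tested interferon genes were called higher in rectum. For B cell genes, none of 11 was called in rectum, where Cd79a was at 0.177 to 9.96 TPM on day 0 and 1.75 to 92.5 TPM on day 14 (2.84 (adjusted p = 0.15)). The rectal values of Cd79a on day 14 thus spread over a much wider range than in mid-colon. Calling in one section and not in the other does not show that the sections differ, so the difference itself was tested.

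In that test the day 14 difference of mid-colon was compared with that of rectum over 13247 genes. It called 1 gene (0.00755%), Cps1, the mitochondrial enzyme that fixes ammonia, which is below the level set for naming and was singled out after its values were seen. Cps1 had a mean of 2.09 TPM on day 0 and 2.49 TPM on day 14 in mid-colon, and of 5.76 and 1.60 TPM in rectum, a difference of differences of 1.55 on the log2 scale (SE 0.20, adjusted p = 0.036). It was not called when any 1 mouse other than mouse 14 was left out. Without mouse 14, 311 genes were called, 284 of them with the more negative difference in mid-colon. S100a8 (-2.27, SE 1.25), Cd79a (-0.26, SE 1.38), H2-Aa (0.55, SE 0.67) and Reg4 (0.23, SE 0.24) were not called, and with these SEs the test says little about the first pair.

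With the mouse as a replicate block, which pairs the sections of each animal, 21 genes were called (0.159%), 12 with the higher and 9 with the lower difference in mid-colon. Cps1 was among them (adjusted p = 0.0013). They included the sodium channel subunit Scnn1g, which had means of 16.7 TPM on day 0 and 11.7 TPM on day 14 in mid-colon and 47.2 and 10.4 TPM in rectum, a difference of 1.72 (adjusted p = 0.049 with the block). They also included Areg, the growth factor amphiregulin, at 15.6 and 15.8 TPM in mid-colon and 15.2 and 41.9 TPM in rectum, a difference of -1.42 (adjusted p = 0.049 with the block). Plat, the tissue plasminogen activator, was at 1.63 and 2.97 TPM in mid-colon and 2.37 and 13.5 TPM in rectum. These 3 were chosen from the 21 after their values were seen.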

How the data were processed

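RNA from mid-colon mucosa, with the muscle layer removed, was sequenced as single-end 75 bp reads from a stranded mRNA kit, per the labels' protocols. The submitters' processing notes name CASAVA, kallisto and mm10, without versions or roles. The authors deposited 1 table of transcript TPM values (a length-adjusted share of all transcripts). It is treated as a score, since transcripts repeated on several rows made the deposited columns sum to 1027330 to 1062208.5. Of 126860 rows, 89516 had values; 1318 repeats were dropped, which left 88198 transcripts and columns of 1000000 TPM. TPM was summed over 30452 genes, and the 1284 transcripts without a gene were left out. Of the gene identifiers, 30123 were in the GENCODE M21 reference (GRCm38, the same build as mm10), 29664 with the same symbol.

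limma 3.58.1 in R 4.3.3 was fitted to log2(TPM + 1) with a mean-variance trend, over genes with at least 1 TPM in at least 3 samples, with Benjamini-Hochberg adjustment, and was tested on simulated data. Only the samples of the groups compared entered a fit. The mid-colon and rectal sections came from the same animals, per the mouse numbers in the labels; deviations of a mouse's sections from their group means correlated with a mean r of 0.29 (-0.01 to 0.59), so the fit across sections was repeated with the mouse as a replicate block (correlation 0.44). Alternatives were a pseudocount of 0.1 TPM, no filter, a 5 TPM filter, trimmed-mean scaling, TPM without mitochondrial and immunoglobulin genes, a 2-fold minimum, all 19 mid-colon samples in the fit, and leaving out each mouse. The fits without a mouse kept the filter taken from all samples of the comparison.

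Named genes are those of 30 lists (428 genes) and the 15 largest rises and 15 largest falls among called genes with at least 8 TPM in the higher group and groups that do not overlap. Some of them are not reported here. The comparison, the lists and the tests were chosen with earlier results of these data known. The tables hold no counts, so the depth is unknown and no counting error is given.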

Additional observations from a re-analysis of the deposited data

Results flagged for a closer look

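Of the genes reported here by name or in the lists, 109 were examined for a sample far from the rest of the 4 day 0 mice, a pattern that chance gives in about 1 of 20 such groups, and 10 had one. Mouse 4 accounted for 6 of them. It was low in Scnn1a (75.3 TPM), Cyp2s1 (46.2 TPM), Nr1d1 (56.1 TPM) and Gsdmcl2 (21.3 TPM), and high in H2-Aa (63.8 TPM) and Acod1 (0.0162 TPM, with the other 3 mice listed at 0). All 6 are called genes, and in every called gene the groups did not overlap. That mouse 4 lay outside the day 14 range in each thus follows from how they were chosen. Mouse 3 was high in Spdef (16.5 TPM) and Csf3r (0.288 TPM) and low in Fcrla (0.165 TPM), and mouse 1 was high in H2-DMa (3.12 TPM). Among 4 measures of the libraries, the share of TPM held by the 10 most abundant genes was high in mouse 4 (31.1%, against 24.6% to 25.5% in the other day 0 mice).

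The day 14 difference of Cps1 differed between sections: that of mid-colon exceeded that of rectum by 1.55 on the log2 scale (adjusted p = 0.036 from limma). The call was lost without any 1 mouse other than mouse 14.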

How the results depend on the processing

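For day 14 against day 0, the 529 calls became 505 with a pseudocount of 0.1 TPM, 685 without mitochondrial and immunoglobulin genes and 393 with a 2-fold minimum, within 1.5 times. No filter gave 239 (193 higher, 46 lower), a 5 TPM filter 318 (139 higher, 179 lower), trimmed-mean scaling 1223 (625 higher, 598 lower), and the fit of all 19 samples 872 (400 higher, 472 lower). Leaving out 1 mouse gave 63 to 1220 calls, 55 to 723 higher and 8 to 856 lower. Of the 529, 489, 155, 318, 502 and 502 remained with the smaller pseudocount, no filter, the 5 TPM filter, trimmed-mean scaling and the TPM without mitochondrial and immunoglobulin genes, and none was called the other way. Of 92 called genes reported by name or in the lists, 21 kept the call in every alternative in which they were tested. Signs turned only in genes that were not called: Lypd8 (0.04) ranged from -0.0602 (without mouse 16) to 0.0982 without 1 mouse, Clca1 (-0.02) was 0.0227 with trimmed-mean scaling, 0.0303 without mitochondrial and immunoglobulin genes and -0.29 to 0.13 without 1 mouse, Mki67 (0.22) was -0.0262 (without mouse 4) to 0.45, and Hoxd13 (-0.08) was -0.22 to 0.0466 (without mouse 16). For day 14 against day 9, no filter gave 1510 and a 2-fold minimum 1522, and leaving out 1 mouse 1107 to 2415. Day 20 against day 14 gave 0 to 2 when 1 mouse was left out. The difference between sections gave 5 calls with no filter, 0 with the 5 TPM filter, 2 with trimmed-mean scaling, 3 without mitochondrial and immunoglobulin genes, 0 to 311 without 1 mouse and 21 once the mouse was a replicate block. Except that fewer genes or samples entered some fits, the cause of these changes was not tested. With 3 and 4 mice a group and no counts, low genes are the least certain.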
